A study of Mus musculus with 7 samples.

Results

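The 6 genes described here encode the receptors and ligands of platelet-derived growth factor (PDGF) and the NG2 proteoglycan. They are Pdgfra and Pdgfrb (receptors), Pdgfa, Pdgfb and Pdgfc (ligands) and Cspg4 (NG2). They were chosen by gene symbol from the 48795 genes of the deposited count table, each symbol matched 1 Ensembl identifier, and all 6 passed the filter on low counts that left 15934 genes for testing. The counts come from primary oligodendrocyte precursor cells (OPCs) of wild-type CD-1 mouse pups aged 4 to 7 days, with both sexes in equal share. Control cells had no treatment, and treated cells had phenylephrine (PE), an α1-adrenergic agonist, at a dose of 20 µM, with RNA taken 1 hour later. Controls carry the numbers 1 to 4 (n = 4) and PE libraries the numbers 2 to 4 (n = 3). The library titles give each PE library the same code as the control of its number, and control 1 stands alone. The labels name neither a vehicle for the controls nor a culture medium, and they do not say whether replicates were separate cultures or litters, so the p-values below describe how far these libraries vary, part of which can be technical.

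PDGF ligands are dimers that bring a pair of receptor chains together at the cell surface, so that the chains phosphorylate each other and recruit SH2-domain proteins of the RAS, PI3 kinase and PLCγ pathways. The A and C ligands act mainly through the α receptor, while the B ligand binds both α and β chains. In the developing brain, PDGF-AA from neurons and astrocytes is the main mitogen and survival factor of OPCs, and Pdgfra and NG2 are the surface markers by which OPCs are recognised. Both are lost when the cells differentiate. Pdgfrb, together with NG2, also marks the pericytes of blood vessels, which are recruited by PDGF-BB from endothelial cells, and Pdgfra also marks fibroblasts of the meninges.

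On GRCm38, as annotated by GENCODE M21, Pdgfra (ENSMUSG00000029231) lies on the plus strand of chromosome 5 from 75152292 to 75198215. Pdgfa (ENSMUSG00000025856) lies on the minus strand of the same chromosome from 138976014 to 138997370. Pdgfb (ENSMUSG00000000489) lies on chromosome 15 from 79995874 to 80014977, Pdgfc (ENSMUSG00000028019) on chromosome 3 from 81036416 to 81214040 and Cspg4 (ENSMUSG00000032911) on chromosome 9 from 56865033 to 56899870. The kit keeps no strand information, so reads over exons shared with an antisense gene cannot be assigned by strand. For Pdgfa this concerns 6330403L08Rik, which had 210 to 297 counts per library beside 472 to 1305 for Pdgfa. The genes that overlap exons of Pdgfra and Pdgfc had at most 6 counts in any library, and Pdgfrb and Cspg4 overlap no annotated gene.

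RefSeq promoter sequences on GRCm38.p6 were found for 4 of the 6 members (Pdgfra, Pdgfa, Pdgfc and Cspg4). The 250 bases upstream of the start are shown for the 3 members with the highest levels. They were searched for the half-site of the cyclic AMP response element (CRE), a sequence found at many stimulus-induced genes, and for the GC box that is common near mammalian starts. Capitals mark the CRE half-site, TGACG or on the other strand CGTCA, and the GC box. The GC box reads GGGCGG, and on the other strand it is written as CCGCCC. The motifs share no bases in these windows. Sequences run 5′ to 3′ on the strand of the gene, Pdgfra at chr5:75152001-75152250 (plus), Cspg4 at chr9:56864854-56865103 (plus) and Pdgfa, the more upstream of its 2 starts, at chr5:138994945-138995194 (minus).
Pdgfra: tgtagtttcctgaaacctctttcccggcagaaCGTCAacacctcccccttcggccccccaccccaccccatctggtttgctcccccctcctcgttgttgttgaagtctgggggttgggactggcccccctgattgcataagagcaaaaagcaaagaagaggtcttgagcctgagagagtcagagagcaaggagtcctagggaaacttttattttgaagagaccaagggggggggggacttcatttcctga
Cspg4: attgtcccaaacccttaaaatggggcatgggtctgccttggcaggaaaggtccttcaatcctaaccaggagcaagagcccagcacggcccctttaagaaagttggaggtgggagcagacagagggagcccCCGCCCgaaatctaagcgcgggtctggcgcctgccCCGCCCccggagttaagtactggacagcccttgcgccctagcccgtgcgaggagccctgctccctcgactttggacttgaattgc
Pdgfa: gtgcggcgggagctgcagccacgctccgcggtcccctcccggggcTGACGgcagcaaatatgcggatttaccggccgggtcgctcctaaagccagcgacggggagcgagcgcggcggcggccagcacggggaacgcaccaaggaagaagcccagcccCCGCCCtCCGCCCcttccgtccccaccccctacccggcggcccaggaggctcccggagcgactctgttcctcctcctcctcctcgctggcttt

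The Pdgfra window held 1 CRE half-site and no GC box, the Cspg4 window 2 GC boxes and no half-site, and the Pdgfa window 1 half-site and 2 GC boxes. Of all 32851 such windows in the RefSeq table, 17.8% held the half-site and 32.7% the GC box. The full palindromic CRE TGACGTCA, present in 1.55% of windows, was in none of the 5 windows of these 4 members. The TATA box TATAAA, present in 12.4% of windows, was in none of the 5 either. An E-box of the form CAGATG, which OLIG factors can bind, was in the Pdgfra window and in 14.4% of all windows. A match is a description of these letters and not a bound site. GC content was 54.4% for Pdgfra, 60.4% for Cspg4 and 72.4% for Pdgfa, beside a median of 52.4% over all windows.

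The libraries held 12837463 to 17962339 counts, and levels are given as CPM, the read count scaled by the TMM-adjusted library size. A count of 3 corresponds to 0.169 to 0.237 CPM. The label of OPCs was checked against 18 other OPC markers. All 18 passed the filter on low counts, and the lineage factors Olig1, Olig2 and Sox10 lay at 1469 to 1918, 732 to 1042 and 339 to 628 CPM across the 7 libraries. Summed over the list, OPC markers came to 10243 to 13429 CPM across controls and 9638 to 12494 CPM across PE libraries. Much of this range lay in 1 listed gene, Gpr17, which went from 4580 CPM in control 1 to 667 CPM in PE 4. Markers of other cells were also present. Committed precursor and myelinating oligodendrocyte markers (18 genes) summed to 2700 to 8427 CPM in control, astrocyte markers (12) to 1326 to 1904, neuron markers (15) to 1308 to 1621, pericyte and smooth muscle markers (13) to 80.9 to 170, leptomeningeal markers (12) to 85.4 to 212, microglia markers (15) to 85.4 to 133 and endothelial markers (12) to 22.2 to 77.1. Most of the neuron sum came from Map2, at 941 CPM on average over controls. Next were Nefm (118), Dcx (114), Dlg4 (102) and Elavl4 (58.7), and lowest were Rbfox3 (1.03), Slc17a6 (0.418) and Slc17a7 (0.224). That sum is thus not a measure of neurons. In bulk RNA, fewer cells of a type and less RNA per cell cannot be told apart.

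Pdgfra, the PDGF α receptor, was among the most abundant messages of these cells. Its CPM was 1341, 2021, 2210 and 2253 in controls 1 to 4 and 2198, 2251 and 2347 in PE 2 to 4. Control 1 was the lowest library, and the other 6 lay close together. The mean was 1956 ± 422 CPM in control (SD, n = 4) and 2265 ± 75.4 CPM in PE (SD, n = 3). In control it ranked 17 by CPM among the 15934 tested genes, and it took 0.137% to 0.234% of all counts of a library. Per kilobase of exon, which allows genes to be compared, Pdgfra stood at 195 ± 42.1 CPM per kb in control and ranked 71 among 13613 tested protein-coding genes.

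Against the other receptor tyrosine kinases, a list of 58 genes written after the data had been seen, Pdgfra was the highest in control. It made up 40.4% of their summed level per kb and stood 3.37-fold above the next gene, the collagen receptor Ddr1 (57.8 ± 8.82 CPM per kb, SD, n = 4). The lowest control value of Pdgfra, 134 CPM per kb, was above the highest of Ddr1, 66.2 CPM per kb. Fgfr1, a receptor for fibroblast growth factors, was at 14.2 ± 1.89 CPM per kb, and the epidermal growth factor receptor Egfr at 9.26 ± 0.37 CPM per kb.

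Cspg4, which encodes the large transmembrane proteoglycan NG2, was the next most abundant member. Its CPM was 288, 353, 507 and 424 in controls 1 to 4 and 368, 543 and 423 in PE 2 to 4. Both libraries of number 3 were the highest and control 1 the lowest, and the groups overlapped. Its level was 32.9 ± 7.90 CPM per kb in control. Among chondroitin sulphate proteoglycans of OPCs, Ptprz1 (receptor-type phosphatase, 181 CPM per kb), the neurocan gene Ncan (148) and the brevican gene Bcan (94.2) had higher mean control levels per kb than Cspg4, while the versican gene Vcan (38.7) and Cspg5 (30.2) lay within 1 SD of it.

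Pdgfrb (ENSMUSG00000024620, chromosome 18 from 61045150 to 61085061, plus strand), the β receptor, was counted at low levels in every library. Its CPM was 2.17, 4.89, 3.55 and 5.14 in controls 1 to 4 (32 to 91 counts) and 5.30, 3.32 and 4.49 in PE 2 to 4 (42 to 78 counts). Control 1 was the lowest library, and the groups overlapped. Per kb of exon it stood at 0.719 ± 0.25 CPM in control and ranked 36 among the 58 receptor tyrosine kinases. The level of Pdgfra per kb was 226-fold to 370-fold that of Pdgfrb across the 7 libraries. The pericyte marker Rgs5, a regulator of G protein signalling, had 2.05 CPM per kb in control on average. Control 1, the lowest library for Pdgfrb, had the highest sum of pericyte and smooth muscle markers among controls (170 CPM beside 80.9 to 155 in controls 2 to 4). PE 2, the highest library for Pdgfrb, had the highest sum of all 7 libraries (199.5 CPM). The part of these cells in the Pdgfrb counts was not tested.

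Of the ligands, Pdgfa, which encodes the A chain, was by far the most abundant. Its CPM was 88.1, 90.9, 34.5 and 46.9 in controls 1 to 4 and 92.2, 37.3 and 57.1 in PE 2 to 4. The 3 libraries of numbers 1 and 2 lay between 88.1 and 92.2, and the 4 libraries of numbers 3 and 4 between 34.5 and 57.1, so that control and PE overlapped fully. Its control mean was 20.9 ± 9.19 CPM per kb.

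Pdgfc, whose product is secreted in a latent form and must be cleaved to bind the α receptor, was at 7.67, 7.38, 9.24 and 9.77 CPM in controls 1 to 4 and 7.70, 14.0 and 9.44 CPM in PE 2 to 4. PE 3 was the highest library, and the other 6 lay between 7.38 and 9.77 CPM. The Pdgfa level per kb was 4.35-fold to 20.1-fold that of Pdgfc. Pdgfd, the remaining ligand gene, had 4 to 15 counts per library (0.207 ± 0.109 CPM per kb in control), and Pdgfrl, a receptor-like gene, had 17 to 59 counts (0.935 ± 0.332 CPM per kb). Neither passed for PE within pairs (edgeR adjusted p = 0.987 for Pdgfd and 0.961 for Pdgfrl).

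Pdgfb, which encodes the B chain, was the least abundant member. It had 6, 13, 11 and 21 counts in controls 1 to 4, which is 0.407, 0.978, 0.710 and 1.19 CPM. In PE 2 to 4 it had 3, 6 and 5 counts, which is 0.212, 0.474 and 0.288 CPM. Each PE library was below the control of its number, but control 1 was below PE 3, so the groups overlapped.

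**Figure D1:**
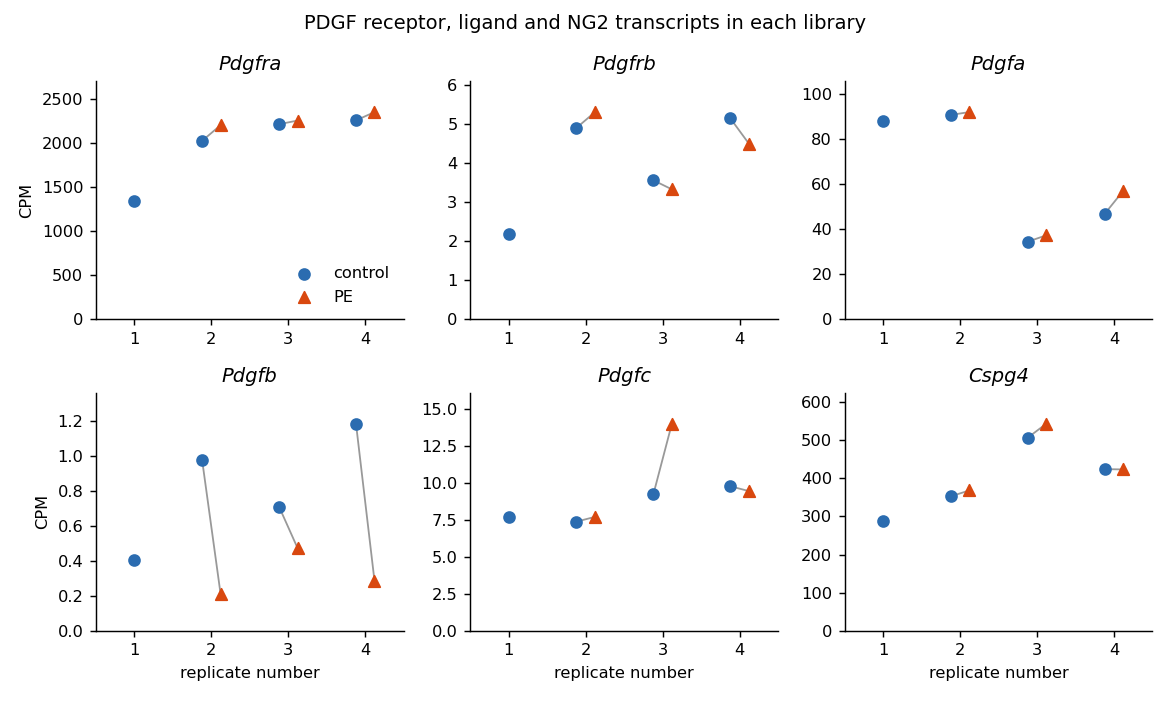
CPM (vertical axes, each from 0) of the 6 genes in each library by replicate number (horizontal axes), with control libraries as circles, PE libraries as triangles and lines joining the libraries of one number. Pdgfa lay at 88.1 to 92.2 CPM in the libraries of numbers 1 and 2 and at 34.5 to 57.1 CPM in those of numbers 3 and 4, and Pdgfb was lower in PE in all 3 pairs.

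Ordered by control level per kb, the members were Pdgfra (195), Cspg4 (32.9), Pdgfa (20.9), Pdgfc (1.67), Pdgfrb (0.719) and Pdgfb (0.197 CPM per kb). The control ranges of Cspg4 (24.1 to 42.5) and Pdgfa (11.1 to 29.1) overlapped, so these neighbours did not differ beyond their spread. The ranges of the other neighbouring members did not overlap. Pdgfrl lay between Pdgfc and Pdgfrb, and its range overlapped that of Pdgfrb, while the ranges of Pdgfd and Pdgfb overlapped each other. With the length of the longest protein-coding transcript in place of all exons, an alternative added after the data had been seen, the values were 286 CPM per kb for Pdgfra and 31.6 for Pdgfa, and the order of the 6 members was the same.

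**Figure D2:**
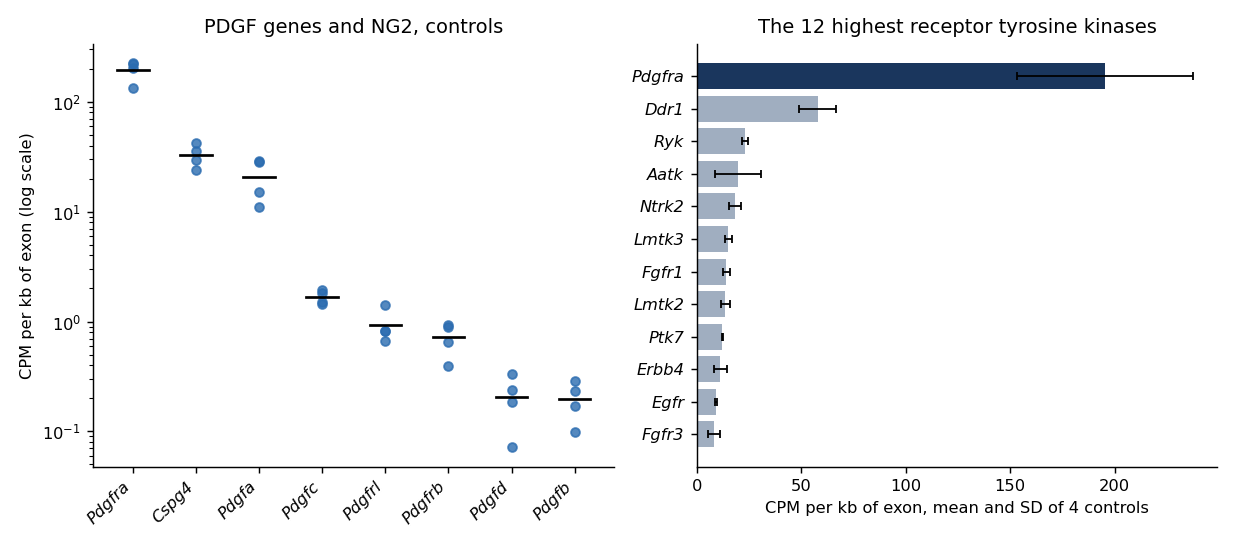
Left, CPM per kb of exon on a log axis for the 6 members, Pdgfd and Pdgfrl in the 4 control libraries (points) with their mean (bar). Right, mean and SD of the 12 highest of 58 receptor tyrosine kinase genes in the 4 controls, where Pdgfra at 195 CPM per kb stood 3.37-fold above Ddr1.

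The treated and untreated libraries bear on whether these messages differ shortly after an adrenergic stimulus. When the pairs were ignored, edgeR's quasi-likelihood test with Benjamini-Hochberg adjustment called 0 of the 6 members, and 0 of 15934 genes in all (0%). At an unadjusted p under 0.05 it gave 1 member, Pdgfb, beside 71 genes (0.446%). With the replicate number as a block, which compares PE with control within pairs, 0 of the 6 members passed either, beside 86 genes in all (0.54%), of which 80 were higher (0.502%) and 6 lower (0.0377%). At an unadjusted p under 0.05 within pairs there were 2 members, Pdgfa and Pdgfb, beside 918 genes (5.76%). DESeq2 and limma-voom called 0 members in both designs. At an unadjusted p under 0.05 within pairs, DESeq2 gave 0 members and limma-voom 3 (Pdgfra, Pdgfa and Pdgfb). Without pairs both tools gave 1, Pdgfb. Control and PE overlapped for all 6 members, while 0.684% of tested genes had every PE library above every control and 0.571% had every PE library below.

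Pdgfra was 1.09-fold, 1.02-fold and 1.04-fold its control in pairs 2, 3 and 4. The paired fit gave a log2 change of 0.07 ± 0.03 SE, with a 95% interval from 1.00-fold to 1.10-fold (adjusted p = 0.869, edgeR with the block). PE was higher in 3 of 3 pairs, which 11.9% of all tested genes showed. For Cspg4 the folds were 1.04, 1.07 and 0.998 in pairs 2, 3 and 4, and the log2 change was 0.05 ± 0.04 SE, with an interval from 0.979-fold to 1.10-fold (edgeR adjusted p = 0.978). For both messages a change of more than 1.10-fold upward lay outside the interval, which rests on the spread estimated across all genes and can be narrower than the spread between pairs.

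Pdgfrb had folds of 1.08, 0.935 and 0.874 in pairs 2, 3 and 4, and its direction differed between pairs. Its log2 change was -0.06 ± 0.17 SE within pairs and 0.15 ± 0.33 SE without them, neither of which passed (edgeR adjusted p = 1.00 in both). The interval within pairs ran from 0.747-fold to 1.23-fold.

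Pdgfa was higher in PE in 3 of 3 pairs, by 1.01-fold, 1.08-fold and 1.22-fold. The paired log2 change was 0.14 ± 0.06 SE, with an interval from 1.00-fold to 1.20-fold, and did not pass (edgeR adjusted p = 0.845). Without the pairs its log2 change was -0.06 ± 0.42 SE, of the opposite sign and with an error that spans the differences between replicate numbers. Leaving out pair 2 gave 0.22 (edgeR adjusted p = 0.0847), and leaving out pair 4 gave 0.06 (adjusted p = 0.983).

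Pdgfb had the largest fitted change of the members and the fewest reads. The CPM ratio of PE to control was 0.217 in pair 2, where 3 counts stood against 13 (exact conditional 95% interval 0.0396 to 0.788, counting error only). In pair 3 it was 0.668 (6 against 11 counts, interval 0.203 to 1.97), and in pair 4 it was 0.243 (5 against 21 counts, interval 0.0716 to 0.662). PE was lower in 3 of 3 pairs, which 13.5% of all tested genes showed. The paired log2 change was -1.58 ± 0.45 SE, an unadjusted p of 0.00306 that ranked 182 of 15934 genes in the edgeR model, and it did not pass after adjustment (adjusted p = 0.268). Without the pairs it was -1.34 ± 0.49 SE (edgeR adjusted p = 1.00). DESeq2 within pairs gave a log2 change of -1.59 ± 0.85 SE, and its unadjusted p was not under 0.05. Summed endothelial markers, cells that make PDGF-B in vessels, were 71.7 and 98.2 CPM in control 2 and PE 2, 27.3 and 31.2 in number 3, and 22.2 and 21.2 in number 4. The part of these cells in the Pdgfb counts was not tested. Summed microglia and macrophage markers were 133 and 139, 86.7 and 91.8, and 133 and 145 CPM in the same order.

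Pdgfc had folds of 1.04, 1.52 and 0.967 in pairs 2, 3 and 4. The difference in pair 3 (177 against 143 counts) had a counting interval from 1.21 to 1.90, and those of pairs 2 and 4 included 1. The paired log2 change was 0.21 ± 0.14 SE and did not pass (edgeR adjusted p = 0.955).

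**Figure D3:**
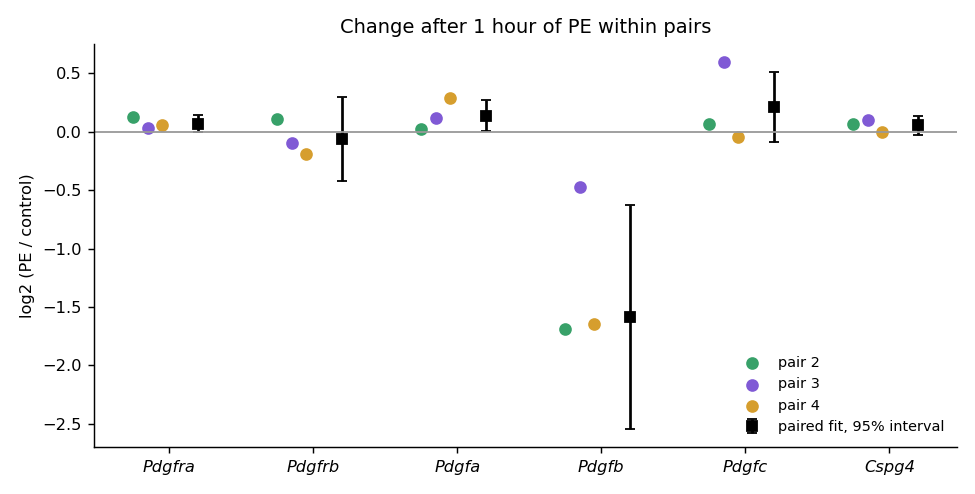
Log2 ratio of PE to control (vertical axis, prior count of 2) of the 6 genes in pairs 2, 3 and 4 (coloured points), with the paired edgeR estimate and its 95% interval (black squares and bars). Pdgfra, Pdgfa and Cspg4 lay near 0 with narrow intervals, Pdgfb had an estimate of -1.58 with a wide interval, and none passed after adjustment over all genes.

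The members were also compared between replicate numbers. In the paired edgeR fit, 5 of the 6 members differed between numbers at an adjusted p under 0.05, as did 68.3% of all tested genes, so the share of members was near that of genes in general. Pdgfa (adjusted p = 1.35e-09), Cspg4 (3.18e-08) and Pdgfra (3.99e-08) had the smallest adjusted p, followed by Pdgfrb (0.00537) and Pdgfc (0.0344), while Pdgfb did not pass (0.305). The highest control library exceeded the lowest 2.91-fold for Pdgfb (6 to 21 counts), 2.64-fold for Pdgfa, 2.37-fold for Pdgfrb, 1.76-fold for Cspg4, 1.68-fold for Pdgfra and 1.32-fold for Pdgfc. Pdgfrb lost its call without control 1 (adjusted p = 0.0605), and Pdgfc lost it without pair 2 (adjusted p = 0.0681) or pair 3 (adjusted p = 0.183), in the same edgeR test. Pdgfra without control 1 still passed, at an adjusted p of 0.0318.

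The ratio of Pdgfra to its ligand gene Pdgfa differed between the numbers. The level of Pdgfra per kb was 4.74-fold that of Pdgfa in control 1, 6.92-fold and 7.42-fold in control 2 and PE 2, 19.9-fold and 18.8-fold in control 3 and PE 3, and 14.9-fold and 12.8-fold in control 4 and PE 4. The 2 libraries of a number lay close together in this ratio, and the numbers lay apart. Pdgfra stayed in a narrower range against Cspg4, between 4.93-fold and 7.11-fold of it per kb in all 7 libraries. Control and PE lay close together in this ratio too. They were at 6.82 and 7.11 in number 2, 5.19 and 4.93 in number 3, and 6.32 and 6.60 in number 4.

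Markers of other stages and cells moved with the replicate number as well. Committed precursor and myelinating oligodendrocyte markers summed to 8427 CPM in control 1, 5152 and 5249 in control 2 and PE 2, 4039 and 4016 in control 3 and PE 3, and 2700 and 2772 in control 4 and PE 4. Control 1, with the lowest Pdgfra and Cspg4, thus had the highest sum of these markers, and all 18 of them differed between numbers by the same test. Summed endothelial markers were at 71.7 to 98.2 CPM in the libraries of numbers 1 and 2, where Pdgfa was high. In those of numbers 3 and 4 they were at 21.2 to 31.2 CPM. The sums of OPC, committed and myelinating, pericyte and smooth muscle, and neuron markers split in the same way, without overlap. For pericyte and smooth muscle markers these were 155 to 199.5 CPM and 71.7 to 127 CPM. The leptomeningeal, microglia and astrocyte sums did not split so. Most of the endothelial sum came from Vwf, Kdr and Slco1a4 (28.4, 15.5 and 17.6 CPM in control 1). By the same edgeR test 8 of the 9 tested endothelial markers differed between numbers, and Flt1 did not (adjusted p = 0.0738). Of the 12 endothelial markers 2, Emcn and Ly6c1, were at 0 counts in at least 1 library. The part of these cells in the differences of the members was not tested.

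**Figure D4:**
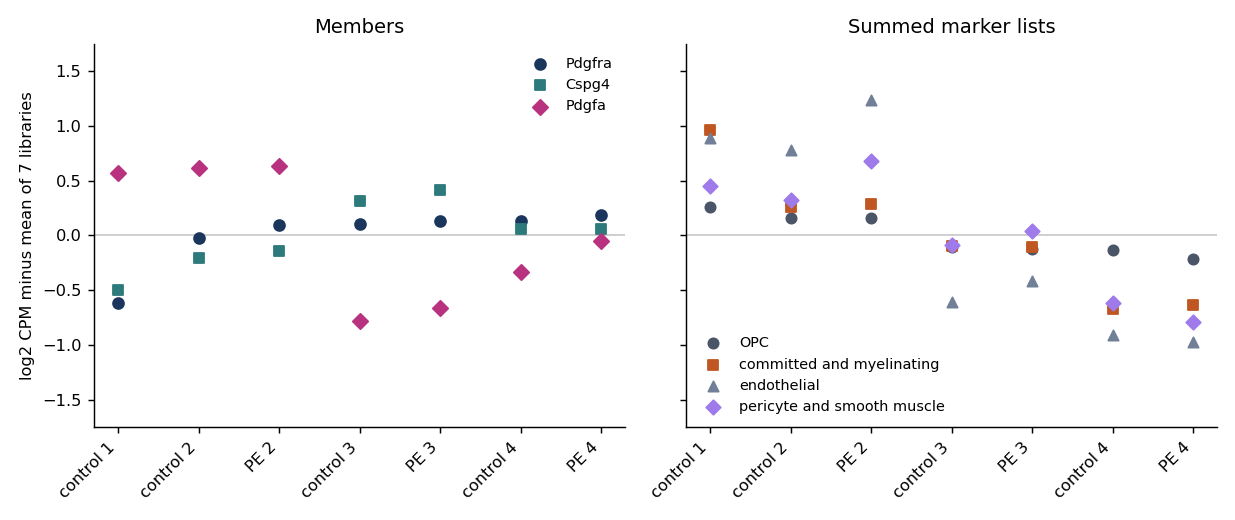
Log2 CPM minus the mean over the 7 libraries (vertical axis) for Pdgfra, Cspg4 and Pdgfa (left) and for the summed CPM of 4 marker lists (right), by library. Control 1 had the lowest Pdgfra (1341 CPM) and the highest committed and myelinating sum (8427 CPM). Pdgfa and all 4 sums shown were higher in every library of numbers 1 and 2 than in numbers 3 and 4. The endothelial sum came mostly from Vwf, Kdr and Slco1a4.

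By the root mean square difference between mean-centred log2 CPM profiles over the 7 libraries, the genes most like Pdgfra were Sema7a, a membrane-anchored semaphorin (0.048), Fut9, a fucosyltransferase (0.055), and Uaca (0.055). The median over 12275 genes was 0.323. For Cspg4 they were the RNA-binding protein gene Celf2 (0.044), Farp1 (0.046) and the fibulin gene Fbln1 (0.047), beside a median of 0.343. For Pdgfa they were Cpq (0.090), Prox2 (0.099) and Spsb2 (0.104), for Pdgfrb Galnt3 (0.057), Dpp6 (0.090) and Col27a1 (0.107), and for Pdgfc Mapk4 (0.111), Lrrc8c (0.111) and Pm20d2 (0.131). The nearest profile to Pdgfb, Pcsk4, was at 0.385 beside a median of 0.693, a distance that its 3 to 21 counts per library make hard to read.

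Genes that act on PDGF ligands before they reach the receptor, or bind them outside the cell, were a list of 14, all of them tested. Of these 0 rose, 1 fell and 13 did not pass within pairs, beside 0.502% higher and 0.0377% lower over all genes. An unadjusted p under 0.05 was found for 2 of the 14, beside 5.76% of all genes. The median log2 change was 0.00, as over all genes (0.00). The gene that fell was Plau, the urokinase that cleaves the latent D ligand. Plau was at 5.04, 5.49 and 12.0 CPM in controls 2 to 4 and at 1.98, 3.00 and 6.51 CPM in PE 2 to 4 (log2 change -0.98 ± 0.16 SE, edgeR adjusted p = 0.00754), and it was at 3.26 CPM in control 1. limma-voom also called 1 gene of the list and DESeq2 called 0. Plat, the tissue plasminogen activator that cleaves the latent C ligand, averaged 140 ± 18.4 CPM over controls and 136 ± 19.2 CPM over PE libraries (0.01 ± 0.04 SE). The extracellular PDGF-binding protein Sparc (-0.04 ± 0.04), the endocytic receptor Lrp1 (0.05 ± 0.05) and the proprotein convertase Furin (0.00 ± 0.07) did not pass.

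Of 40 adaptors and effectors of the receptor, 0 passed within pairs by edgeR, limma-voom or DESeq2. In edgeR 2 of them had an unadjusted p under 0.05, a share near that of all genes (5.76%). These 2 genes were the PI3 kinase regulatory subunit Pik3r1 (-0.14 ± 0.05 SE, edgeR adjusted p = 0.380) and Stat3 (0.09 ± 0.04 SE, adjusted p = 0.851). The kinase gene Fyn, at 697 ± 99.7 CPM in control the most abundant of the list, had a log2 change of 0.00 ± 0.04 SE, and the phosphatase Ptpn11, which binds the activated receptor, had -0.02 ± 0.04. The list median was 0.01. Of 21 phosphatases, ubiquitin ligases and trafficking genes of the receptor, 0 passed by any of the 3 tools and 0 had an unadjusted p under 0.05. Among them was the ubiquitin ligase gene Cbl (-0.01 ± 0.05).

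Of 16 tested partners, ligands and proteases of NG2 (17 listed), 0 passed by any of the 3 tools and 0 had an unadjusted p under 0.05, with a median log2 change of 0.00. The sheddase Adam10, which releases the NG2 ectodomain, had -0.07 ± 0.04 SE, the integrin subunit Itgb1 -0.01 ± 0.04 and the scaffold syntenin gene Sdcbp 0.04 ± 0.04. Of 11 chondroitin sulphate proteoglycans and enzymes that make their chains, 0 passed by any of the 3 tools, with 0 at an unadjusted p under 0.05. Their median was 0.03.

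Of 26 genes that PDGF is known to induce in fibroblasts and other cells, 3 rose, 0 fell and 23 did not pass within pairs, with a median log2 change of 0.06. Over all tested genes 0.502% rose and 0.0377% fell. Of the list, 16 genes had an unadjusted p under 0.05 (5.76% of all genes), 11 of them higher and 5 lower in PE. Those that rose were the AP-1 subunits Fos (0.45 ± 0.07 SE, edgeR adjusted p = 0.00397) and Junb (0.49 ± 0.09, adjusted p = 0.0158) and the phosphatase Dusp1 (0.71 ± 0.10, adjusted p = 0.00152). Dusp1 was at 35.7, 20.4 and 16.5 CPM in controls 2 to 4 and at 47.5, 33.8 and 34.3 CPM in PE 2 to 4. Other stimuli induce the same genes. The 5 with lower values were the ERK phosphatase gene Dusp6 (-0.31 ± 0.07, edgeR adjusted p = 0.0515), the signalling inhibitor Spry4 (-0.19 ± 0.05), the transcription factors Etv5 (-0.16 ± 0.05) and Etv4 (-0.14 ± 0.06) and the cyclin Ccnd1 (-0.08 ± 0.04), none of which passed. Unlike Spry4, the related Spry2 (0.19 ± 0.05) and Spry1 (0.19 ± 0.05) were among the 11 higher, and they did not pass. Egr1 (0.07 ± 0.06) and Myc (0.00 ± 0.04) did not pass either. In 3 of 3 pairs 9 genes of the list were higher and 6 lower. limma-voom called 4 genes of the list and DESeq2 called 2.

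Of 18 OPC markers other than the members, Tmem100 rose, Olig2 and Sox8 fell and 15 did not pass in the paired edgeR fit, with a median of -0.02, beside 0.502% higher and 0.0377% lower over all genes. limma-voom called 3 genes of this list and DESeq2 called 0, so these calls were lost with DESeq2. Of the 50 tested receptor tyrosine kinases, Fgfr2 alone rose and none fell within pairs, with a median log2 change of 0.04 (edgeR). In the same paired fit 0 of the pericyte and smooth muscle, leptomeningeal, endothelial and microglia markers passed (11, 10, 9 and 13 tested). At an unadjusted p under 0.05 there were 3, 3, 2 and 1, beside 5.76% of all genes. The 3 leptomeningeal genes were lower in PE, and those of the other lists were higher. limma-voom and DESeq2 called 0 in these 4 lists. Of the committed and myelinating (18 tested) and astrocyte markers (11) 0 passed by any of the 3 tools, with 0 at an unadjusted p under 0.05, and of 13 neuron markers Gad1 alone rose by edgeR, while limma-voom called 1 gene of that list and DESeq2 called 0.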

How the data were processed

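The authors deposited whole-number read counts per Ensembl gene, 1 column per library, without normalization. The tools named in the submitters' processing notes are bcl2fastq 2.17, STAR and HTSeq, with the builds GRCm38 and mm10. Which annotation and strand setting the counting used is not given in the sources used here. SMART-Seq v4 and Nextera XT, the kits per the labels' protocols, amplify cDNA without marking strand. Amplified reads are not independent molecules, so intervals from counts cover counting error only. The same protocols describe tamoxifen, virus and immunoprecipitation, and whether these apply to the cultured cells is not stated. Control 1, being unpaired, does not contribute to the paired estimate itself. 0 columns of values were left unmapped.

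edgeR 4.0.16 in R 4.3.3 was run on all genes (TMM, filterByExpr with minimum count 10 and total 15, quasi-likelihood F test, two-sided, Benjamini-Hochberg, threshold 0.05), with the group alone as planned and with the replicate number as a block. The numbers were taken as pairs, and titles share a library code within a number. Deviations of PE and control from their group means correlated at 0.74, 0.67 and 0.79 for numbers 2, 3 and 4. These were above the limit of 0.1. So were PE 2 with control 1 (0.67), PE 4 with control 3 (0.36) and PE 3 with control 4 (0.22). The remaining combinations were negative. The limit alone thus does not separate pairs, though each PE library correlated most with the control of its number. Differences between numbers were tested with an F test on the block terms. Standard errors were derived from each log2 change and its F value. Log2 CPM used a prior count of 2. Exon lengths and positions came from GENCODE M21 (48349 genes). Libraries of the same group differed by more than counting error (chi-square over its degrees of freedom 12.0 to 103), so each counts as 1 replicate. DESeq2 1.42.0, limma 3.58.1 (voom), other size factors, no filter and left-out replicates were alternatives. A prior count of 0.5 for pair ratios and the longest transcript as gene length were added after the data had been seen. The procedure was tested on simulated counts. Changes were simulated only in genes with more counts than Pdgfb and Pdgfd, so that test does not bear on these 2 genes.

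The members, the gene lists and the tests were chosen with earlier results of these data known. The rule for list genes names every member that passed either fit or, in a list with none, up to 4 with the highest mean CPM. List genes and receptor kinases named outside it were chosen after their values were seen. Among these were Pik3r1, Ptpn11, Cspg5, Sdcbp, Lrp1, Sparc, Plat, Furin, Egr1, Myc, Ccnd1 and Dusp6. Others were Spry1, Spry2, Spry4, Etv4, Etv5, Rgs5, Olig1, Sox10, Fgfr1 and Egfr. Likeness used the 3 nearest named genes with a mean log2 CPM of at least 1.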

Additional observations from a re-analysis of the deposited data

How the results depend on the processing

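No alternative called any of the 6 members for PE (13 settings without pairs, 10 within pairs). Among all genes, the count of calls was 0 without pairs, 86 with the replicate block and 2 by DESeq2. Within pairs it was 86, with 0 when no replicate block was used, 194 without the filter on low counts, 33 by DESeq2, and 49 to 275 when 1 pair was left out (253, 49 and 275 without pairs 2, 3 and 4). The sign of small changes depended on the block. Pdgfrb had -0.061 with the replicate block and 0.15 without it, and Pdgfa 0.14 and -0.065. Without pairs, leaving out 1 library gave -0.044 to 0.31 for Pdgfrb (-0.044 without control 1, -0.0049 without PE 2) and -0.46 to 0.20 for Pdgfa (0.12, 0.14 and 0.20 without control 1, control 2 and PE 3). Within pairs, leaving out 1 pair gave -0.15 to 0.022 for Pdgfrb (0.022 without pair 4). The log2 change of Pdgfb lay between -2.07 and -1.29 over the paired alternatives (adjusted p at least 0.135). That of Pdgfra lay between 0.05 and 0.09 where the replicate block was kept, and it was 0.21 without the block. The replicate block changed no call of a member. The count of members that differed between numbers was 4 to 5. The cause of these shifts was not tested. Depth limits Pdgfb and Pdgfd, where 3 counts are 0.169 to 0.237 CPM.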
